A study of Homo sapiens with 6 samples.

Results

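The genes described here encode serine proteases of the epithelial cell surface and the inhibitors that act on them. They are the type II transmembrane proteases TMPRSS2, TMPRSS3, TMPRSS4, TMPRSS13, HPN and ST14, the membrane-anchored or secreted proteases PRSS8 and PRSS22, and the transmembrane inhibitors SPINT1 and SPINT2. The 10 genes were taken by their symbols from a table of 54644 gene rows, and the set was assembled because TMPRSS4 was lower in the CTTN-overexpressing cells. The values of TMPRSS4 are therefore given as a description: it was in the fit across all genes, but no p is given for it and nothing rests on it.

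RNA-seq was performed on SKBR3, an established HER2-positive human breast adenocarcinoma line. Control cells (CON, 3 libraries) carried the empty lentiviral pLVX vector, and CTTN-overexpressing cells (CTTN, 3 libraries) carried pLVX with a cDNA of CTTN, the actin-binding protein cortactin. Both were stable lines selected with puromycin. The replicates are called biological in the series' design, but whether a group came from more than 1 infection is not stated, and the extraction protocol speaks of tumors as well as of cells. A bulk library cannot tell fewer expressing cells from less RNA per cell.

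Type II transmembrane serine proteases are anchored by a single segment near the amino terminus and expose their catalytic domain to the outside of the cell. They are made as inactive zymogens, and several activate one another, growth factor precursors, protease-activated receptors and epithelial sodium channel subunits. Matriptase (ST14) and prostasin (PRSS8) form the best known of these relays in epithelia, where the Kunitz-type inhibitors HAI-1 (SPINT1) and HAI-2 (SPINT2) restrain them.

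The libraries held 34887079 to 41279658 assigned fragments. CTTN, the introduced gene, stood at 104, 108 and 108 FPKM (fragments scaled for transcript length and library size) in CON-1, CON-2 and CON-3, and at 263, 329 and 180 FPKM in CTTN-1, CTTN-2 and CTTN-3. Its fitted log2 change was 1.35 ± 0.22 (SE, adjusted p = 0.0249), and its adjusted p was 0.123 to 0.154 when CON-1, CON-2, CON-3 or CTTN-1 was left out. CTTN-3 stood apart from the other libraries: genes with transcripts under 1000 bases took 2.49% of its counts, against 1.86% in CTTN-1, 1.48% in CTTN-2 and 1.40 to 1.53% in the CON libraries, and its FPKM values summed to 852300, against 603600 to 704000 in the other 5. CTTN-2 lay closest to CON. The luminal HER2 markers were present, with ERBB2 at 1640 to 1790 FPKM, except that CDH1 (E-cadherin) and TFAP2B were low. CDH1 was at 0.0501 to 0.244 FPKM, and TFAP2B at 0.296 to 0.528 FPKM in CON and 0.867 to 1.05 FPKM in CTTN. Of the 12 such markers 11 were tested, and TFAP2B alone passed the test (log2 change 1.09 ± 0.18, adjusted p = 0.0265), beside 4.20% of all genes. Its adjusted p was 0.105 to 0.158 when CON-1, CON-2, CON-3 or CTTN-1 was left out. Of the 10 fibroblast, immune and endothelial markers 4 were tested, and edgeR, DESeq2 and limma each called 0. DESeq2 and limma called 14.3% and 0.552% of all genes. By edgeR 1 of the 4 had an unadjusted p under 0.05, beside 4365 of the 14433 genes tested. Without CTTN-2 edgeR called 5 of 12 luminal markers and 2 of 4 fibroblast, immune and endothelial markers, beside 47.2% of all genes. The summed level of the latter 10 markers was 609 to 636 FPKM in CON and 624 to 859 FPKM in CTTN. Nearly all of it came from a row that CD68 shares with the translation factor gene EIF4A1. VIM was at 0.112 to 0.251 FPKM, PTPRC at 0.0166 to 0.199 FPKM, and COL1A1 at 2.83 to 4.26 FPKM.

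Among the 9 proteases and inhibitors other than TMPRSS4, HPN rose and TMPRSS2 fell in CTTN cells, and 7 did not pass the test (edgeR quasi-likelihood test, Benjamini-Hochberg adjusted p under 0.05 over 14433 genes). The same test called 4.20% of all genes, 2.29% as higher and 1.91% as lower in CTTN. The median log2 change of the 9 genes was 0.27, beside 0.01 over all genes tested. With a change of at least 1.5-fold added to the rule, HPN was called and TMPRSS2 was not, beside 3.20% of all genes. The counts of the 3 CON and 3 CTTN libraries did not overlap for 3 of the 9 genes (TMPRSS2, TMPRSS3 and HPN), and for 38.6% of all genes tested. The set was chosen on this contrast, and nothing is read from these counts.

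In CON cells the order of mean levels was SPINT2 (740 FPKM), SPINT1 (197), ST14 (118), PRSS8 (111), TMPRSS4 (40.7), PRSS22 (39.5), TMPRSS13 (31.0), TMPRSS2 (14.9), HPN (0.513) and TMPRSS3 (0.212). Neighbours in this order were separated in all libraries except TMPRSS4 and PRSS22, whose ranges overlapped. In CTTN cells TMPRSS4 stood below both PRSS22 and TMPRSS13 and above TMPRSS2, and ST14 and PRSS8 overlapped. FPKM values are per transcript length, so they can be set side by side between genes.

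TMPRSS4 is a transmembrane protease first described in pancreatic cancer and known for its association with invasion. Its gene spans 118077078 to 118125505 on chromosome 11 (RefSeq, GRCh38). Its level was 41.1, 41.1 and 39.8 FPKM in CON-1, CON-2 and CON-3 and 13.8, 14.8 and 17.8 FPKM in CTTN-1, CTTN-2 and CTTN-3. The counts were 4012, 3830 and 3890 in CON and 1353, 1372 and 1325 in CTTN. The groups did not overlap on either scale, and every CTTN library lay far below every CON library. The fitted log2 change was -1.54 ± 0.07 (SE), a level 2.90-fold lower in CTTN, which was the 41st lowest log2 change of the 14433 genes tested.

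The spread of TMPRSS4 among the CTTN libraries depended on the scale. The count was 1350 ± 23.3 in CTTN and 3911 ± 93.0 in CON (SD, n = 3 each), and the FPKM was 15.5 ± 2.06 and 40.7 ± 0.72. The log2 change was -1.55 without CTTN-2 and -1.52 without CTTN-3. Of the 3 CTTN libraries, CTTN-3 had the lowest TMPRSS4 count and the highest FPKM.

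The TMPRSS4 row was assembled from 31 isoforms with 9 start sites. A single start site held 95.0 to 96.9% of the row in CON, and 98.0%, 94.7% and 90.9% in CTTN-1, CTTN-2 and CTTN-3. Its estimated count averaged 3750 in CON and 1280 in CTTN, so the lower level was at the start site that carried nearly all of the gene's reads. The next site went from a mean estimated count of 129 in CON to 30.3 in CTTN. A further site held 7.52% of the row in CTTN-3 and at most 0.221% in the other libraries.

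Of the TMPRSS4 isoforms, 4 averaged at least 5% of the row. The most abundant, of 2074 bases, stood at 13.9, 12.7 and 10.5 FPKM in CON and at 2.50, 4.89 and 6.14 FPKM in CTTN. An isoform of 3531 bases stood at 5.77 to 6.58 FPKM in CON and 1.83 to 2.37 FPKM in CTTN. The isoform matching TMPRSS4-207, annotated as a target of nonsense-mediated decay, stood at 11.8 to 13.3 FPKM in CON and at 3.77, 4.95 and 1.58 FPKM in CTTN. An isoform of 5550 bases stood at 1.37 to 1.67 FPKM and 0.272 to 0.621 FPKM. All 4 were lower in every CTTN library than in every CON library. Isoform values are estimates that divide shared reads, and they were not tested.

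**Figure D1:**
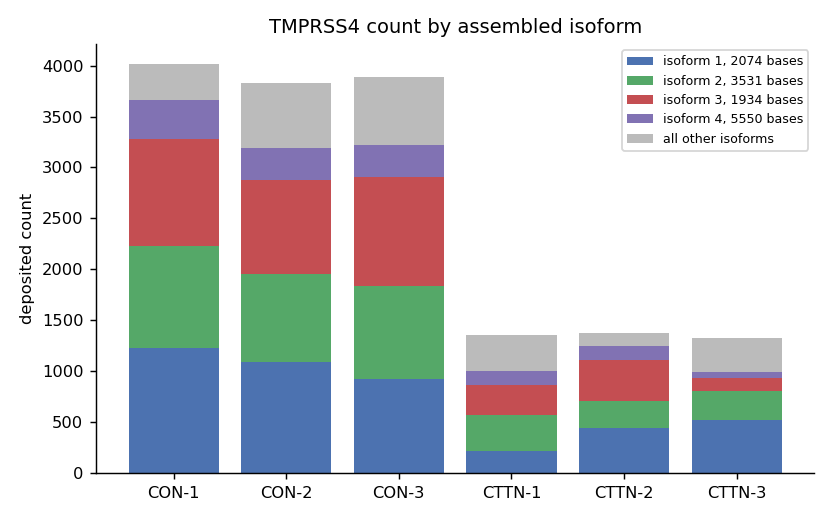
Deposited TMPRSS4 count in each library, divided by the estimated share of the 4 most abundant assembled isoforms (named by length) and of all others. Each of the 4 colours is shorter in every CTTN library, and the whole bars stand at 3830 to 4012 in CON and 1325 to 1372 in CTTN.

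TMPRSS13, the closest protease gene to TMPRSS4, ends 147675 bases before it on chromosome 11 and encodes a mosaic serine protease of stratified epithelia. It stood at 30.2, 31.6 and 31.1 FPKM in CON and 30.2, 29.9 and 27.6 FPKM in CTTN. The groups overlapped in counts. The fitted log2 change was -0.09 ± 0.08 (adjusted p = 0.412), with a 95% interval of -0.27 to 0.09. The FPKM ratio of TMPRSS4 to TMPRSS13 was 1.28 to 1.36 in CON and 0.457 to 0.643 in CTTN.

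Within 500000 bases of the TMPRSS4 locus lay 36 other gene rows, of which 11 passed the filter on low counts. Their log2 changes ran from -0.85 to 0.43 with a median of -0.14, beside 0.01 over all genes tested. Only MPZL2, which encodes an epithelial adhesion protein of the myelin protein zero family, passed the test, that is 1 of the 11, beside 4.20% of all genes tested. It went from a mean of 44.9 to 34.5 FPKM (log2 change -0.37 ± 0.07, adjusted p = 0.0385). The adjusted p of MPZL2 was 0.186 to 0.203 when CON-1, CON-2, CON-3 or CTTN-1 was left out. It was 0.0665 by edgeR with no filter on low counts, and 0.147 with limma on log2(FPKM + 1).

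TMPRSS2 is an androgen-regulated protease known from prostate and lung epithelia, and its gene lies at 41464305 to 41508158 on chromosome 21 (GRCh38). It stood at 15.8, 13.5 and 15.2 FPKM in CON and at 10.4, 10.3 and 10.8 FPKM in CTTN. All CTTN libraries lay below all CON libraries. TMPRSS2 fell by 0.51 on the log2 scale (SE 0.09, adjusted p = 0.0265), which is 1.43-fold. The change was -0.50 without CTTN-3 (adjusted p = 0.0121) and -0.51 without CTTN-2 (adjusted p = 0.00344). The call was lost when any of CON-1, CON-2, CON-3 or CTTN-1 was left out, with an adjusted p of 0.119 to 0.147 and a log2 change of -0.56 to -0.48. It was also lost with limma on log2(FPKM + 1), at an adjusted p of 0.0967.

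The main TMPRSS2 start site held 90.5 to 95.4% of the row in CON, 91.2% in CTTN-1 and 92.4% in CTTN-2, but 73.6% in CTTN-3. A second site took 26.4% of the row in CTTN-3 and 1.88 to 6.14% in the other 5 libraries. The estimated count at the main site was 1288 to 1515 in CON and 987.7, 968.1 and 756.6 in CTTN-1, CTTN-2 and CTTN-3. The isoform behind the second site was 1972 bases long. At the main site the isoforms with the largest shares were those of 3205 and 3240 bases in the other 5 libraries, and that of 2982 bases (29.8% of the row) in CTTN-3. CTTN-3 was also the library with the largest share of counts in short genes, and the part of this in the shift was not tested.

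HPN encodes hepsin, a protease abundant in liver and raised in prostate cancer, and its gene lies at 35040506 to 35066573 on chromosome 19 (GRCh38). Its level was low: 0.490, 0.636 and 0.413 FPKM in CON and 1.5, 1.84 and 2.02 FPKM in CTTN. The counts were 28, 38 and 33 in CON and 90, 100 and 102 in CTTN, with no overlap. HPN rose 2.95-fold (log2 change 1.56 ± 0.18, adjusted p = 0.0079), the 65th highest log2 change of the 14433 genes tested. The change was 1.54 without CTTN-2 (adjusted p = 0.00187) and 1.52 without CTTN-3 (adjusted p = 0.00363). Without CON-1, CON-2, CON-3 or CTTN-1 the adjusted p was 0.0584 to 0.0737, at a log2 change of 1.45 to 1.67. It was 0.0965 with limma on log2(FPKM + 1) when no filter on low values was set.

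One HPN start site held 80.8 to 100% of the row in CON and 86.8 to 99.2% in CTTN. Its estimated count was 22.51, 38.40 and 32.57 in CON and 89.47, 89.33 and 88.48 in CTTN. The isoform matching HPN-202 had the highest CTTN level, at 0.116, 0.502 and 0.112 FPKM in CON and at 1.03, 1.11 and 1.33 FPKM in CTTN. The antisense row HPN-AS1 was listed at 0 in all 6 libraries.

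TMPRSS3, a protease whose loss causes hereditary deafness, lies on chromosome 21 as TMPRSS2 does, from 42371890 to 42396052, and 863731 bases separate them. It was the least abundant of the set, with 14, 13 and 11 counts in CON and 34, 22 and 20 in CTTN. On the FPKM scale it stood at 0.229, 0.214 and 0.192 in CON and 0.689, 0.376 and 0.383 in CTTN. The groups did not overlap, but the spread in CTTN was wide. The coefficient of variation of the count was 29.8% there, beside a median of 16.3% over all genes tested. The fitted log2 change was 1.0 ± 0.31 (95% interval 0.28 to 1.72), and the gene did not pass the test (adjusted p = 0.101). Without CTTN-2 it did (log2 change 1.09, adjusted p = 0.0374).

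RefSeq promoter sequences of GRCh38.p14, each from 250 bases before to 50 bases after an annotated transcript start, were matched for HPN, TMPRSS3 and SPINT1, that is for 3 of the 10 genes. Those of HPN and TMPRSS3 are shown because these were the proteases with higher counts in all 3 CTTN libraries than in any CON library. They are written 5′ to 3′ on the strand of the gene, with matches to the GC box GGGCGG on either strand in capitals. HPN is on the plus strand at chr19:35041471-35041770, and TMPRSS3 on the minus strand at chr21:42389100-42389399. The starts they are built on, at 35041721 and 42389149, lie 1215 and 6903 bases inside the RefSeq spans of the genes, and they were not matched to the assembled start sites of these libraries.
HPN: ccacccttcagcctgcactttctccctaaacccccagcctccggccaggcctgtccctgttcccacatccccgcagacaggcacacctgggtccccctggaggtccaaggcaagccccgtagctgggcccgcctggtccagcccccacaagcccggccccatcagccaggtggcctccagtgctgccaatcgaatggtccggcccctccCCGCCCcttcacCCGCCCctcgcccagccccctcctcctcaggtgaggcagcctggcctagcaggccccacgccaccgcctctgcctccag
TMPRSS3: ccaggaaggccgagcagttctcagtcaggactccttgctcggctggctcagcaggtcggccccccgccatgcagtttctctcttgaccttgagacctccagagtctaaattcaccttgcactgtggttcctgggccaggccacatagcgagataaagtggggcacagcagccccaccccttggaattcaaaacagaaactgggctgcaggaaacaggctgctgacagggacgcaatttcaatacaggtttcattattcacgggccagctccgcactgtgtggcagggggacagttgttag
The window of HPN was 71.0% G and C and held 2 GC boxes. That of TMPRSS3 was 56.3% G and C and held none. Over all 35116 promoters of the table the median was 58.7% G and C, and 45.0% held a GC box. Neither window held the TCF/LEF motif CTTTGAT (2.62% of all promoters), the AP-1 motif TGANTCA (7.71%), the TATA box TATAAA (11.5%) or the E-box CACGTG (7.26%), searched on both strands.

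ST14 encodes matriptase, the type II transmembrane protease that SPINT1 and SPINT2 inhibit, from 130159782 to 130210362 on chromosome 11. It stood at 118, 117 and 118 FPKM in CON and at 137, 115 and 148 FPKM in CTTN. On this scale CTTN-2 lay below the CON libraries and CTTN-1 and CTTN-3 above them. The count of CTTN-2, 14572, lay within the 13817 to 14652 of CON. The log2 change was 0.13 ± 0.08 (95% interval -0.06 to 0.32, adjusted p = 0.29). A single start site carried 99.8 to 100% of the row in every library.

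PRSS8 encodes prostasin, which is held in the membrane by a glycolipid anchor and regulates the epithelial sodium channel. Its gene spans 31131433 to 31135727 on chromosome 16. Its level was 112, 112 and 107 FPKM in CON and 128, 101 and 154 FPKM in CTTN. The CTTN libraries straddled CON. The count varied by 22.8% among them against 6.70% in CON, beside medians of 16.3% and 5.44% over all genes tested. The log2 change was 0.27 ± 0.17 (95% interval -0.12 to 0.67, adjusted p = 0.274). It passed the test without CTTN-2 (log2 change 0.43, adjusted p = 0.0105), and was 0.10 without CTTN-3 (adjusted p = 0.609).

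PRSS22, also known as tryptase epsilon, is a secreted protease of airway and other epithelia, encoded from 2852730 to 2858170 on chromosome 16. It stood at 42.8, 36.8 and 38.9 FPKM in CON and at 50.2, 40.7 and 54.6 FPKM in CTTN. CTTN-1 and CTTN-3 lay above CON and CTTN-2 within it. The log2 change was 0.32 ± 0.13 (95% interval 0.02 to 0.62, unadjusted p = 0.0413, adjusted p = 0.153). Without CTTN-2 it was 0.42 (adjusted p = 0.00929), and without CTTN-3 it was 0.23 (adjusted p = 0.219). PRSS22 had 4 start sites, and the main site held 62.6 to 66.5% of the row in CON and 68.7 to 75.5% in CTTN.

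SPINT1 encodes HAI-1, the transmembrane Kunitz-type inhibitor of matriptase, hepsin and the hepatocyte growth factor activator. Its gene spans 40844048 to 40858207 on chromosome 15. It stood at 205, 185 and 201 FPKM in CON and at 212, 190 and 243 FPKM in CTTN. The groups overlapped. The log2 change was 0.13 ± 0.11 (95% interval -0.12 to 0.38, adjusted p = 0.408). One of its 9 start sites held 95.8 to 98.9% of the row. The antisense gene SPINT1-AS1 was at 21.0 to 27.9 FPKM in CON and 21.8 to 40.6 FPKM in CTTN, with its highest value in CTTN-3 as well. The kit marked the strand, but the strand setting of the counting is not given in the sources used here, so a share of antisense reads in the SPINT1 value is not known.

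SPINT2 encodes HAI-2, a Kunitz-type inhibitor with a broad range that includes prostasin, and its gene spans 38264573 to 38292615 on chromosome 19. Its row also covered C19orf33 and AC011479.1, and isoforms named SPINT2 made up 96.63 to 97.55% of the count. Their share of the FPKM was smaller: the short isoform C19orf33-201 alone stood at 64.3 FPKM in CON-1 and 118 FPKM in CTTN-3. The row stood at 779, 726 and 716 FPKM in CON and at 905, 668 and 1220 FPKM in CTTN. CTTN-2 lay below all CON libraries and the other two above. The log2 change was 0.30 ± 0.18 (95% interval -0.11 to 0.72, adjusted p = 0.258). It was 0.46 without CTTN-2 (adjusted p = 0.0108) and 0.10 without CTTN-3 (adjusted p = 0.584).

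ST14, PRSS8, PRSS22, SPINT1 and SPINT2 shared the order CTTN-2, CTTN-1, CTTN-3 from the lowest to the highest FPKM. The summed FPKM of all genes and the share of counts in short genes followed the same order, and the level of CTTN the reverse one. The part of these in the members' values was not tested. Without CTTN-2 the test called 6 of the 9 genes other than TMPRSS4 (TMPRSS2, TMPRSS3, PRSS8, PRSS22, HPN and SPINT2), beside 47.2% of all genes tested. Without CTTN-3 it called TMPRSS2 and HPN, beside 8.54% of all genes. With edgeR 0 of the 9 were called when CON-1, CON-2, CON-3 or CTTN-1 was left out, where 2 to 4 had an unadjusted p under 0.05. The genes at that unadjusted p were not counted for these fits, and were 4365 of 14433 with all 6 libraries. In these fits 0.197%, 0.102%, 0.205% and 0.123% of all genes tested were called. On all 6 libraries DESeq2 called 2 of the 9, beside 14.3% of all genes, and limma on log2(FPKM + 1) called 1, beside 0.552%.

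**Figure D2:**
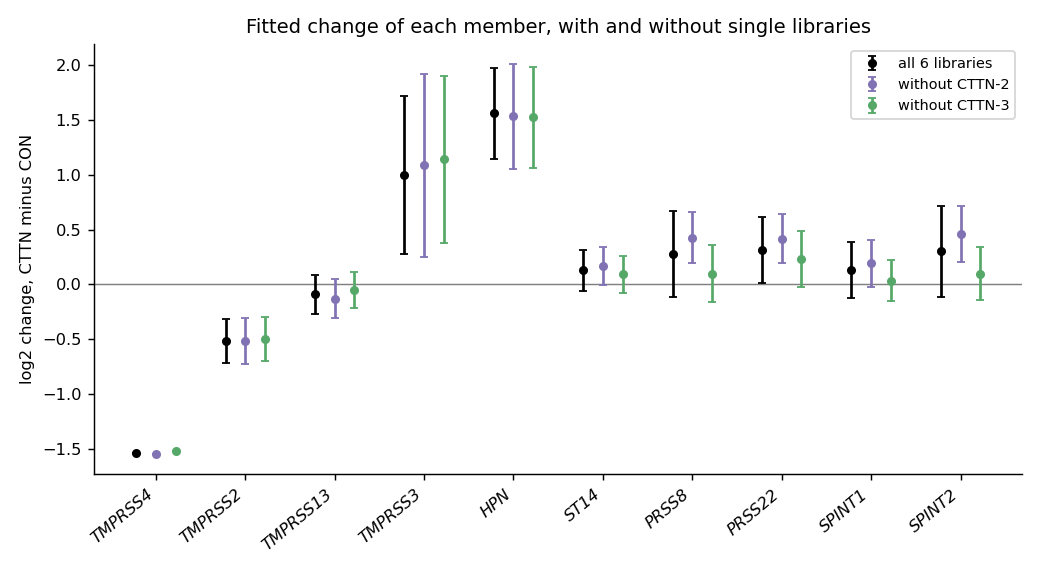
Fitted log2 change (CTTN minus CON) of each gene with its 95% interval (left out for TMPRSS4, on which the set was chosen), from all 6 libraries (black), without CTTN-2 (purple) and without CTTN-3 (green). TMPRSS2 and HPN keep nearly the same value in all 3 fits, whereas PRSS8 moves from 0.43 without CTTN-2 to 0.10 without CTTN-3 and SPINT2 from 0.46 to 0.10.

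The balance between proteases and inhibitors was compared within libraries, as ratios of FPKM. SPINT1 over ST14 was 1.67 ± 0.08 in CON and 1.62 ± 0.06 in CTTN (SD, n = 3 each). SPINT2, by the row it shares with C19orf33, over PRSS8 was 6.69 ± 0.22 and 7.20 ± 0.70. Both ratios overlapped between the groups. The summed level of the 8 proteases was 351 to 361 FPKM in CON and 314 to 415 FPKM in CTTN. TMPRSS4 made up 11.3 to 11.6% of that sum in CON and 3.71 to 4.72% in CTTN.

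The proteases' substrates and partners were described from a list of 18 genes, of which 13 were tested. PLAUR rose, SCNN1A fell, and 11 did not pass, beside 4.20% of all genes called in the same fit, with a median log2 change of -0.01 over the 13. SCNN1A, the alpha subunit of the epithelial sodium channel that prostasin regulates, stood at 43.7, 39.3 and 40.4 FPKM in CON and at 29.6, 29.6 and 27.6 FPKM in CTTN (log2 change -0.48 ± 0.08, adjusted p = 0.0277). The groups did not overlap. PLAUR encodes the urokinase receptor, which places another serine protease at the cell surface. It stood at 6.47, 7.12 and 6.72 FPKM in CON and at 14.1, 11.2 and 15.9 FPKM in CTTN, with every CTTN library above CON (log2 change 1.08 ± 0.12, adjusted p = 0.00845). Without CON-1, CON-2, CON-3 or CTTN-1 both genes missed the threshold, with adjusted p of 0.0682 to 0.0838 for PLAUR and 0.135 to 0.167 for SCNN1A. With limma on log2(FPKM + 1) their adjusted p were 0.0515 and 0.0599. Of the 13 tested genes 4 were called without CTTN-2, beside 47.2% of all genes, and 4 without CTTN-3, beside 8.54%. EPCAM, a matriptase substrate, was at 151 to 163 FPKM in CON and 132 to 177 FPKM in CTTN (adjusted p = 0.744). The receptor MET was at 8.92 to 9.20 and 8.60 to 10.9 FPKM (adjusted p = 0.969), and F2RL1, the protease-activated receptor PAR2, at 4.73 to 5.05 and 4.06 to 6.71 FPKM (adjusted p = 0.542).

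Of 26 other serine protease inhibitors, whose tested members filled 11 gene rows (SERPINA3 and SERPINA5 share a row), 0 passed by edgeR, beside 4.20% of all genes called. At an unadjusted p under 0.05 were 5 of the 11 rows, beside 4365 of the 14433 genes tested. DESeq2 called TFPI2, that is 1 of the 11 rows, beside 14.3% of all genes. With no filter on low counts edgeR called TFPI2 (adjusted p = 0.0473), that is 1 of 21 rows, beside 2.30% of all genes. With limma on log2(FPKM + 1) 0 of 15 rows were called, beside 0.552%. Without CTTN-2, edgeR called 4 of the 11 rows (APLP2, SERPINB6, TFPI2 and AMBP), beside 47.2% of all genes. The median log2 change was -0.10 over the 11 rows. APP and APLP2, which carry Kunitz domains in some isoforms, were the most abundant at 121 to 163 and 126 to 170 FPKM, and did not pass with all 6 libraries.

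Of 17 other membrane serine proteases 3 were tested and 0 passed by edgeR, beside 4.20% of all genes called. At an unadjusted p under 0.05 was 1 of the 3, beside 4365 of the 14433 genes tested. DESeq2 called TMPRSS15, beside 14.3% of all genes, and limma called 0, beside 0.552%. Without CTTN-2 edgeR called PRSS27 and TMPRSS15, beside 47.2%. PRSS27 stood at 9.08 to 11.5 FPKM in CON and 10.1 to 18.9 FPKM in CTTN (adjusted p = 0.185), TMPRSS9 at 0.616 to 0.964 and 0.502 to 1.07 FPKM (adjusted p = 0.309), and TMPRSS15 at 0.227 to 0.404 and 0.0792 to 0.140 FPKM (adjusted p = 0.0706). Of 15 kallikrein-related peptidases only KLK2 was tested, at 0.511 to 0.895 FPKM in CON and 0.327 to 0.546 FPKM in CTTN (adjusted p = 0.186, unadjusted p not under 0.05), and DESeq2 and limma did not call it either. The whole kallikrein list summed to 0.648 to 0.995 FPKM in CON and 0.475 to 0.831 FPKM in CTTN.

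The genes whose log2(FPKM + 1) profile over the 6 libraries was most like that of TMPRSS4 were sought among 321 genes with a mean of at least 1 FPKM and a drop of at least 1.5-fold on that scale. SP140L had a Pearson r of 0.9997, and went from a mean of 1.80 to 0.707 FPKM. THRSP (r = 0.9934) went from 5.0 to 2.2 FPKM, CRISP3 (r = 0.9915) from 5.02 to 2.34 FPKM and AL512599.1 (r = 0.9905) from 7.68 to 4.73 FPKM. A row shared by MUC20, MUC20-OT1, SDHAP2 and SMBD1P (r = 0.9900) went from 71.9 to 46.0 FPKM. These r are descriptions over 6 points in 2 groups, among genes chosen for being lower in CTTN.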

How the data were processed

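Per the labels and the study's methods, poly(A) RNA was made into stranded TruSeq libraries, and the submitters' processing notes name bcl2fastq 2.20.0, Trimmomatic, STAR and Cufflinks. The labels name GRCh38 and the methods hg19. All 11 loci checked (the 10 genes and CTTN) overlap RefSeq spans of GRCh38.p14, so that build was used. Transcript names are from GENCODE. The authors deposited Cuffnorm tables of FPKM values and of estimated counts for genes, start sites and isoforms. The gene counts were whole fragments divided by a library scale: multiplied back, 100% of values up to 1000 were whole within 0.02. They were rounded as deposited and tested with edgeR 4.0.16 (R 4.3.3) by the quasi-likelihood test with TMM scaling and filterByExpr, with Benjamini-Hochberg adjustment over 14433 genes and a threshold of 0.05. SE, 95% intervals and adjusted p come from that fit, unless another tool is named. The code was tested on simulated data.

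The libraries are numbered as in the deposited sample table, whose column names for CON differ from those in the labels. The group of each column is clear, but not which CON sample each column is. Deviations of same-numbered libraries correlated at 0.0844, 0.125 and -0.188, and those of differently numbered libraries at -0.27 to 0.229. The deviations were from group means of 3 libraries and depend on one another, so they cannot settle whether the numbers pair the libraries. P-values measure the spread between these libraries of 2 stable lines. Intervals cover counting and library error only. Alternatives were RLE scaling, no filter, DESeq2 1.42.0, limma 3.58.1 on log2(FPKM + 1) or log2(FPKM + 0.1), the whole fragments, a replicate block, each library left out and, chosen after seeing the data, SPINT2 isoforms in place of its row. The genes and lists were chosen with earlier results of these data known. Named were all 10 genes, CTTN, the called genes of each list (or its most abundant), the 5 genes most like TMPRSS4 and called neighbours within 500000 bases. Some genes of the lists are not reported here and are in none of the list counts. F2RL1, MET, EPCAM, TMPRSS9, TMPRSS15, TFPI2, SERPINB6, AMBP and single marker genes fall outside that rule and were chosen after their values were seen.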

Additional observations from a re-analysis of the deposited data

How the results depend on the processing

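With all 6 libraries 606 genes were called, and 2 of the 9 genes other than TMPRSS4. DESeq2 called 2071 genes, the replicate block 109, limma on log2(FPKM + 1) 94, limma on log2(FPKM + 0.1) 115, and limma with no filter 13. The members called were 1 with the replicate block, 1 with limma at either pseudocount and 0 with limma without a filter. In each of the first 3 of these the remaining member was HPN (adjusted p = 0.0424 with the block). The samples share only a number, taken from the deposited sample table. Leaving out 1 library at a time gave 15 to 6953 genes and 0 to 6 members called. The extremes were without CON-2 and without CTTN-2. RLE scaling, no filter on low counts, whole fragments and SPINT2 isoforms alone left both counts within 1.5 times. With at least 1.5-fold change 462 genes were called, and 12 to 3133 under the alternatives.

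None of the 10 genes, CTTN, SCNN1A, PLAUR, TFAP2B and MPZL2 changed direction under the 15 alternatives. TMPRSS4 ran from -1.55 to -1.35 on the log2 scale, the latter with limma. HPN ran from 0.88 to 1.67 and TMPRSS2 from -0.56 to -0.46. The cause of these shifts was not tested. TMPRSS3 rested on 11 to 34 counts per library and HPN on 28 to 102, and the effect of depth on their precision was not tested.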

Other observations

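Of the 11 tested rows of other serine protease inhibitors, that of TFPI2, a Kunitz-type inhibitor of extracellular serine proteases, had the log2 change farthest from 0, at -1.62 ± 0.37. It stood at 0.438, 0.812 and 1.02 FPKM in CON and at 0.292, 0.395 and 0.215 FPKM in CTTN, and did not pass the edgeR test (adjusted p = 0.059; 0.0473 with no filter on low counts). SERPINB6, an intracellular serpin, was at 5.19 to 6.20 FPKM in CON and at 9.32, 6.11 and 12.0 FPKM in CTTN-1, CTTN-2 and CTTN-3 (adjusted p = 0.124), the same order of the CTTN libraries as PRSS8 and SPINT2. CDCP1, a surface protein that matriptase cleaves, was at 1.63 to 1.76 FPKM in CON and 0.864 to 1.33 FPKM in CTTN without overlap, and did not pass (adjusted p = 0.0795 by edgeR), though DESeq2 called it. These genes were chosen after their values were seen.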
